A study of Mus musculus with 2 samples.

Results

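The natriuretic peptide system was followed through 7 genes in nuclei of the mouse heart: the peptide genes Nppa, Nppb and Nppc, the receptor genes Npr1, Npr2 and Npr3, and Corin. They were taken by symbol from the 32589 genes in the files, and all 7 were present. The nuclei came from hearts of male C57BL/6 mice that were 8 weeks old when treatment started. Control mice were given PBS and the others an antibody against PD-1, an inhibitory receptor of T cells, at 5 mg/kg. Injections fell on days 1 and 14 of a 28 day cycle. Each group was 1 library of single-nucleus RNA sequencing (snRNA-seq), and how many hearts went into each is not given in the sources used here. With 1 library per group no difference has a replicate check, so no test was run and no p-value is given. Intervals are given at 95% and hold counting error of the summed UMIs, not spread between nuclei or between animals. A value said to be under PD-1 inhibitor is that of the PD-1 inhibitor library, and every log2 ratio is PD-1 inhibitor over control.

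Natriuretic peptides are hormones by which the heart lowers blood volume and pressure. Atrial natriuretic peptide (ANP, from Nppa) is stored in atrial cardiomyocytes, brain natriuretic peptide (BNP, from Nppb) is released by stretched heart muscle, and C-type natriuretic peptide (CNP, from Nppc) acts mostly within tissues. Corin is a membrane-bound serine protease of cardiomyocytes that cuts the ANP precursor to its active form. Npr1 encodes the receptor for ANP and BNP and Npr2 the receptor for CNP, and both make cyclic GMP (cGMP) when bound. Npr3 encodes the clearance receptor, which takes up the peptides and has no guanylyl cyclase domain.

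Nppb and Nppa lie next to each other in the same direction on chromosome 4 (GRCm38, GENCODE vM21), Nppb at chr4:147985788-147987205 and Nppa at chr4:148000722-148002079, 13.5 kb apart. Corin spans 204 kb at chr5:72300025-72504473 on the minus strand. Their upstream sequences are shown because these 3 genes share a cell type and yet differed between its subtypes. Each line gives the bases before the start of the gene in RefSeq (GRCm38.p6), 5′ to 3′ on the strand of the gene. Capitals mark GATAA (the core bound by GATA factors), TNAAGTG (NKX2-5), GGTGTGA (T-box factors), GGAATG (TEAD factors) and TATAAA, searched on both strands.
Nppa, chr4:148000472-148000721, plus strand: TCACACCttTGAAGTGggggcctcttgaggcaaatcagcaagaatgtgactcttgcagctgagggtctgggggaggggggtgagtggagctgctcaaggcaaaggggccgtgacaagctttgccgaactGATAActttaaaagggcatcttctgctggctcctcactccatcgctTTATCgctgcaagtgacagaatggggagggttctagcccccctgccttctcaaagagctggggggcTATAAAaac
Nppb, chr4:147985650-147985787, plus strand: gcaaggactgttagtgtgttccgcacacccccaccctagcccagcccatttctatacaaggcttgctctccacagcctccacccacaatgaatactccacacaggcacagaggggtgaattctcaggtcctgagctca
Corin, chr5:72504541-72504790, minus strand: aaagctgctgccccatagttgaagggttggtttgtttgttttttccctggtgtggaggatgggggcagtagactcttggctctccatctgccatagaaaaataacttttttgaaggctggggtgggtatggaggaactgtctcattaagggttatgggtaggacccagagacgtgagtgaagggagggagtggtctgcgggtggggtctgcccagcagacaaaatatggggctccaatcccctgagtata

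The 250 bases before Nppa held 2 GATAA matches, 121 and 75 bases before the start, with 1 TNAAGTG, 1 GGTGTGA and 1 TATAAA. The Nppb line stops where GENCODE begins the gene, 112 bases before the RefSeq start. Within those 112 bases lay 2 GATAA matches, 1 GGAATG and 1 TATAAA. The Corin window held none of the 5 motifs, and Nppc held 1 TATAAA. The windows of Npr1, Npr2 and Npr3 held none. Of 32851 promoter windows of the same length, 22.6% held GATAA, 10.1% TNAAGTG, 3.33% GGTGTGA, 12.6% GGAATG and 12.4% TATAAA. A match describes letters only.

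After filtering, 9522 control and 7644 PD-1 inhibitor nuclei remained, with 12103951 and 10290085 UMIs (unique molecular identifiers, each standing for 1 captured RNA molecule) and medians of 1012 and 1055 UMIs per nucleus. Of the barcodes, 48 occurred in both libraries. The nuclei formed 22 clusters, of which 21 were named by their markers as 10 cell types. The 7 genes were left out of the clustering and of every marker list. Levels are UMIs of the gene per 1000000 UMIs of the nuclei (CPM), and the background of RNA free in the suspension was read from T cells and B cells. These held 412 control and 272 PD-1 inhibitor nuclei with medians of 907.5 and 874.5 UMIs. Median mitochondrial share was higher under PD-1 inhibitor, 1.23% against 0.837%.

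**Figure D1:**
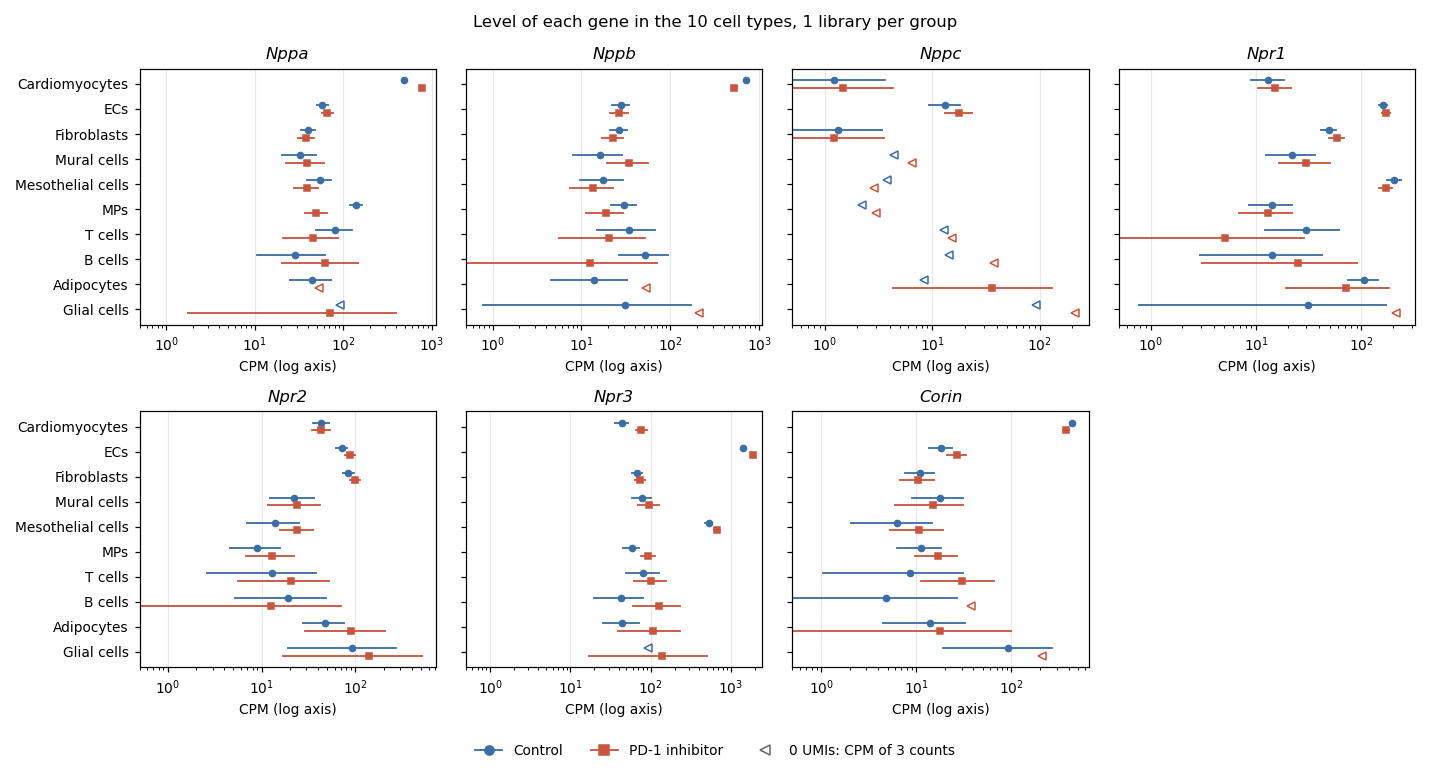
CPM of the 7 genes (log axis) in the 10 cell types, control as circles and PD-1 inhibitor as squares, with 95% Poisson intervals that are drawn from 0.5 CPM upwards, and open triangles at the CPM that 3 counts would give where no UMI was found. Nppa, Nppb and Corin stood highest in cardiomyocytes (491, 719.5 and 436.5 CPM in control), Npr3 in ECs and mesothelial cells, and Npr1 in mesothelial cells and ECs.

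Nppa was the gene of the atrial-like cardiomyocytes. This cluster held 41 control and 43 PD-1 inhibitor nuclei and yet carried 48.1% of all Nppa UMIs. A marker was counted for a subtype where at least 5% of the cluster's nuclei had a UMI and its level was over 2-fold that of the other cardiomyocyte clusters. By that rule 9 of 10 atrial and 0 of 8 ventricular markers were raised in the cluster, although 7 of the ventricular ones had UMIs there in each library. Its level there was 11950 CPM (11090 to 12850) in control and 13470 CPM (12680 to 14290) under PD-1 inhibitor, for a log2 ratio of 0.17 (0.04 to 0.31). A UMI of Nppa was found in 95.1% of control and 88.4% of PD-1 inhibitor atrial-like nuclei, and in 87.8% and 86.0% after thinning each nucleus to 500 UMIs. Single nuclei ranged from 0 to 96 UMIs with a median of 14 in control, and from 0 to 139 with a median of 12 under PD-1 inhibitor. The ranges overlapped almost wholly. With only nuclei of at most 5% mitochondrial UMIs, the log2 ratio was -0.42.

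Most ventricular-like cardiomyocytes had little Nppa. They formed a pair of clusters, both with 3 of 8 ventricular and 0 of 10 atrial markers raised by the same rule. All 8 ventricular markers had UMIs in both clusters, and the atrial ones summed to between 288 and 409 CPM there, against 20320 CPM and 26370 CPM in the atrial-like cluster. They are called here by their mitochondrial share, which was low in the first, with medians of 0.353% and 0.680% in 729 and 520 nuclei. It was high in the other, with medians of 9.34% and 8.35% in 517 and 532 nuclei, and this cluster was led by Acta1, Xirp2 and Gm10053. Nppa in the low-mitochondrial cluster was 69.2 CPM (56.9 to 83.4) in control and 137 CPM (116 to 161) under PD-1 inhibitor, for a log2 ratio of 0.98 (0.62 to 1.36). In the high-mitochondrial cluster it was 465 CPM (418 to 515) and 385 CPM (346 to 428), for a log2 ratio of -0.27 (-0.49 to -0.05). A single control nucleus held 108 of the 366 control UMIs in that cluster. The log2 ratio was 0.23 without it, -0.06 without the richest nucleus of each library and -0.55 without that of PD-1 inhibitor alone, so its direction rested on 1 nucleus. In the low-mitochondrial cluster the same steps gave 0.67 to 1.27. T and B cells gave 56.4 CPM and 50.7 CPM, so the control level of the low-mitochondrial cluster was close to the background.

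Most Nppa UMIs of the ventricular-like cardiomyocytes sat in a few nuclei, and the rest were spread thinly over others. Only 8 control and 13 PD-1 inhibitor ventricular-like nuclei had 10 or more Nppa UMIs, and they held 268 of 476 and 295 of 492 of the Nppa UMIs of ventricular-like nuclei. Nuclei below that number had 88.0 CPM (76.5 to 101) in control and 102 CPM (88.4 to 118) under PD-1 inhibitor. The 10 atrial markers summed to 462 CPM (186 to 951) in the rich control nuclei and 370.5 CPM (185 to 663) under PD-1 inhibitor, against 391 CPM and 298 CPM in the others. Of them, 7 and 6 were at 0, among them Myl4, and the highest was Kcnj3 in control (330 CPM) and Myl1 under PD-1 inhibitor (202 CPM). The 8 ventricular markers summed to 15570 CPM (13650 to 17690) against 14140 CPM in control, and to 18760 CPM (17240 to 20390) against 15380 CPM under PD-1 inhibitor. They were divided: 4 and 2 of the 8 stood above their level in the other nuclei. The light chain genes Myl2 and Myl3 were among the higher in both libraries, at 5014 CPM and 9129 CPM and at 5343 CPM and 6299 CPM. Fhl2 was lower, at 2375 CPM against 5124 CPM and 1651 CPM against 3893 CPM, as was Lrtm1, and Irx4 and Hey2 were at 0. A count of 0 in so few nuclei has an upper limit of 243 CPM in control and 124 CPM under PD-1 inhibitor. In the other nuclei Irx4 was 61.8 CPM and 49.3 CPM, Hey2 7.20 CPM and 7.78 CPM, and Myl4 43.6 CPM and 50.3 CPM. These levels lay below the limits, so the 0 counts of these genes do not set the rich nuclei apart.

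The same nuclei were rich in Nppb. Nppb stood at 3694 CPM (2791 to 4797) in the 8 control nuclei, against 675 CPM (642 to 709) in the other ventricular-like nuclei. Under PD-1 inhibitor it was 2122 CPM (1631 to 2715) in the 13 nuclei against 513 CPM (481 to 546). Ankrd1, a muscle ankyrin repeat gene that responds to stretch, was 4090 CPM against 1089 CPM in control and 7175 CPM against 1313 CPM under PD-1 inhibitor. Acta1, the skeletal muscle actin re-expressed in stressed ventricle, was 6135 CPM against 198 CPM and 1179 CPM against 216 CPM. Corin was 330 CPM (107 to 770) against 425 CPM in control and 67.4 CPM (8.16 to 243) against 385 CPM under PD-1 inhibitor. Of the rich nuclei, 6 in control and 9 under PD-1 inhibitor lay in the high-mitochondrial cluster, where Acta1 was a leading gene and Corin was low. Within that cluster Acta1 was 7596 CPM against 485 CPM in control and 1458 CPM against 427 CPM under PD-1 inhibitor. Nppb there was 4084 CPM against 481 CPM and 1708 CPM against 534 CPM. Ankrd1 there was 5064 CPM against 1843 CPM in control and 8289 CPM against 2242 CPM under PD-1 inhibitor. Corin was 327 CPM (89.0 to 836.5) against 156 CPM and 83.3 CPM (10.1 to 301) against 133.5 CPM, with intervals that overlapped. In the low-mitochondrial cluster, with 2 and 4 rich nuclei, Acta1 was at 0 in them. The upper limits there, 1265 CPM and 650 CPM, lay above the 57.4 CPM and 40.9 CPM of the other nuclei, so no difference in Acta1 can be read. Ankrd1 was at 0 in the rich control nuclei of that cluster, with the same limit of 1265 CPM, against 720 CPM. Under PD-1 inhibitor it was 2466 CPM (1348 to 4138) in the rich nuclei against 539 CPM. The rich nuclei were picked by their Nppa, so the values are a description.

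Over all cardiomyocytes, Nppa was 491 CPM (464 to 520) in control and 780 CPM (742 to 819) under PD-1 inhibitor, for a log2 ratio of 0.67 (0.56 to 0.78). A UMI was present in 12.7% and 13.8% of nuclei, or 7.77% and 9.31% after thinning, so the share moved little beside the level. In control 31 cardiomyocyte nuclei, and under PD-1 inhibitor 37, had 10 or more UMIs, and the 11 and 12 richest held at least 50% of all Nppa UMIs in the type. The ratio depended on which nuclei were in the mix. With the same mix of clusters in both libraries the log2 ratio was 0.14, without the atrial-like nuclei 0.33, and among nuclei of at most 5% mitochondrial UMIs -0.16. The 0.33, which is that of the ventricular-like nuclei, was itself 0.07 with the same mix of their clusters and 0.60 after thinning. Of the 6 genes with at least 50 UMIs in cardiomyocytes, Nppa and Npr3 were over 1.5-fold higher under PD-1 inhibitor and none was over 1.5-fold lower, where 7.94% and 7.89% of 9241 genes were. Npr3 in cardiomyocytes, 43.5 CPM and 77.0 CPM, did not exceed its level in T and B cells, 63.1 CPM and 109 CPM.

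Outside cardiomyocytes Nppa ran near the lymphocyte level. It was 58.4 CPM and 66.2 CPM in ECs and 40.4 CPM and 37.8 CPM in fibroblasts. MPs (mononuclear phagocytes) stood apart in control only, at 140 CPM (121 to 162) against 49.6 CPM (36.8 to 65.4). A single control nucleus of the dendritic-like cluster, with 4260 UMIs, held 110 of that cluster's 117 Nppa UMIs. It carried 159 UMIs of the 12 cardiomyocyte markers and 42 of its own type's markers. A lymphatic-like EC nucleus of the control library held 21 of 30 UMIs, with 66 cardiomyocyte and 6 EC marker UMIs. What these nuclei are was not tested. Gm13054, an antisense gene that overlaps Nppa, had 6 UMIs in the cardiomyocytes of either library. Without strand, reads of the pair cannot be told apart.

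**Figure D2:**
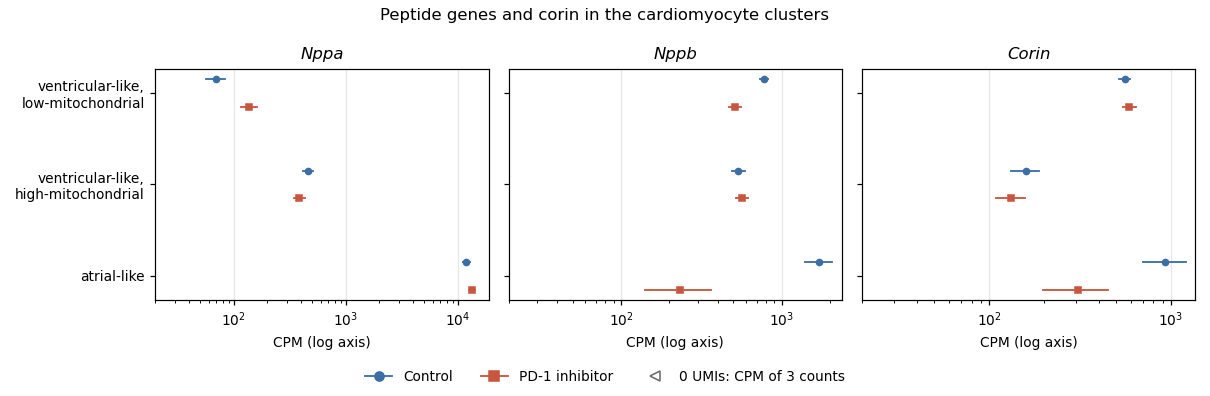
CPM (log axis) of Nppa, Nppb and Corin in the 3 cardiomyocyte clusters, control as circles and PD-1 inhibitor as squares, with 95% Poisson intervals. Nppa was 11950 and 13470 CPM in the atrial-like cluster, while Nppb there was 1707 CPM in control and 233 CPM under PD-1 inhibitor.

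Nppb was a gene of all cardiomyocyte clusters, and its level was lower under PD-1 inhibitor. Over all cardiomyocytes it was 719.5 CPM (686 to 754) in control and 525 CPM (494 to 558) under PD-1 inhibitor, for a log2 ratio of -0.45 (-0.57 to -0.34). The 5th to 95th percentile of 9241 genes in cardiomyocytes ran from -0.69 to 0.69, and 1258 of these genes lay at or below Nppb. A UMI was found in 38.2% and 31.4% of nuclei, and in 22.1% and 17.2% after thinning. T and B cells showed Nppb in 3.64% and 1.84% of nuclei, 42.8 CPM and 18.1 CPM. Unlike Nppa, its UMIs were spread: no cardiomyocyte nucleus held more than 33 of them in control.

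The lower level was seen in the low-mitochondrial and the atrial-like clusters and not in the other. In the low-mitochondrial cluster Nppb was 772.5 CPM (730 to 817) in control and 513 CPM (471 to 558) under PD-1 inhibitor, for a log2 ratio of -0.59 (-0.74 to -0.44). In the high-mitochondrial cluster it was 537 CPM (487 to 591) and 565 CPM (517 to 617), for a log2 ratio of 0.07 (-0.11 to 0.26). Of 7206 genes in the low-mitochondrial cluster 504 had a log2 ratio at or below that of Nppb, and of 5279 in the high-mitochondrial cluster 3141. Of the 5 genes that could be counted in each, the low-mitochondrial cluster had Nppb over 1.5-fold lower and Nppa and Npr3 over 1.5-fold higher, where 7.16% and 9.10% of all genes were. Npr3 there rested on 50 and 60 UMIs, and its level did not exceed that of T and B cells in either library. The high-mitochondrial cluster had none of the 5 in either direction, where 7.69% and 5.38% of genes were. The log2 ratio over both clusters, -0.37, kept within -0.41 and -0.33 under every alternative that gave a value. With at most 5% mitochondrial UMIs and at Leiden resolution 2 it had no value.

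In the atrial-like nuclei the difference was larger. Nppb was 1707 CPM (1393 to 2070) from 103 UMIs in control and 233 CPM (140 to 364) from 19 UMIs under PD-1 inhibitor, for a log2 ratio of -2.84 (-3.66 to -2.16). A UMI was found in 56.1% of 41 and 23.3% of 43 nuclei, and in 48.8% and 6.98% after thinning. Single control nuclei had 0 to 11 UMIs with a median of 1, and single PD-1 inhibitor nuclei 0 to 5 with a median of 0. The ranges overlapped at the low end. Across the alternatives the log2 ratio lay between -3.44 and -1.73, the smaller difference with at most 5% mitochondrial UMIs.

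Corin moved the same way in these nuclei. It was 928 CPM from 56 UMIs in control and 307 CPM from 25 UMIs under PD-1 inhibitor, for a log2 ratio of -1.58 (-2.34 to -0.89). Single nuclei had 0 to 7 UMIs with a median of 1 in control, and 0 to 5 with a median of 0 under PD-1 inhibitor. So of the 3 genes that could be counted there, Nppb and Corin were over 1.5-fold lower and none higher. In this small cluster 27.9% of 340 genes were over 1.5-fold lower and 27.6% over 1.5-fold higher, so a difference of that size was common. Only 3 of the 340 genes, Nppb included, had a log2 ratio at or below that of Nppb. The range from the 5th to the 95th percentile of the genes was -1.52 to 1.32.

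The atrial-like nuclei of the libraries also differed in their markers. Among the 10 atrial markers, Bmp10, a growth factor gene of the right atrium, was 812 CPM (49 UMIs) in control and 85.9 CPM (7 UMIs) under PD-1 inhibitor. Myl1 went from 25 to 7 UMIs and Kcnj3, a subunit of the acetylcholine-gated potassium channel, from 2187 CPM to 1251 CPM. Myl7 and Sln, the atrial light chain and the calcium pump inhibitor sarcolipin, were higher under PD-1 inhibitor, at 8304 against 4706 CPM and 5703 against 3148 CPM. The 12 EC markers summed to 514 CPM in control, with 2 of them at 0, and to 1398 CPM under PD-1 inhibitor, with 1 at 0. Median mitochondrial share was 2.37% and 5.41%. The part of these differences in the Nppb and Corin values was not tested. Which part of the atria went into each library is not given in the sources used here, so with 1 library per group the tissue taken and the treatment cannot be told apart in these ratios.

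**Figure D3:**
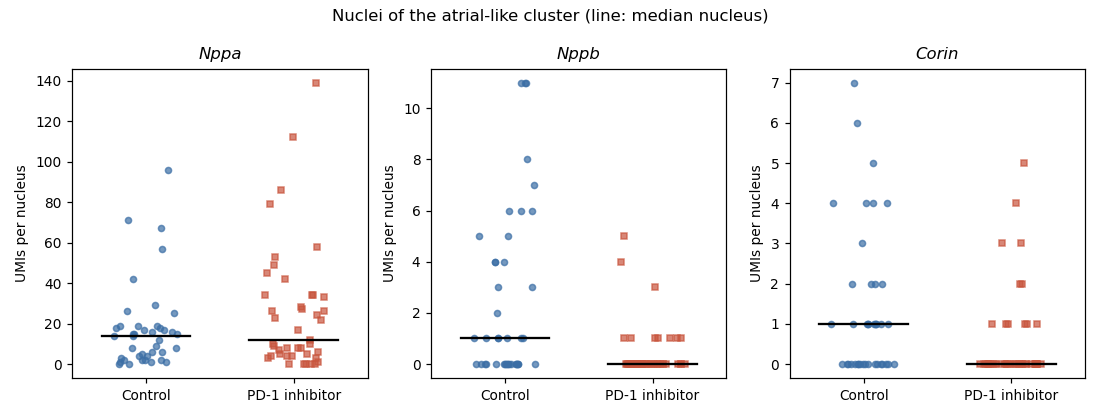
UMIs per nucleus of Nppa, Nppb and Corin in the 41 control (circles) and 43 PD-1 inhibitor (squares) nuclei of the atrial-like cluster, each point 1 nucleus and each line the median nucleus, with points spread sideways at random. Nppa medians were 14 and 12 UMIs, while Nppb and Corin both had medians of 1 and 0 UMIs.

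Corin differed between the ventricular-like clusters more than between the libraries. In the low-mitochondrial cluster it was 555.5 CPM (519 to 593) in control and 591 CPM (546 to 639) under PD-1 inhibitor, for a log2 ratio of 0.09 (-0.06 to 0.24). In the high-mitochondrial cluster it was 159 CPM (132 to 189) and 132 CPM (110 to 158), for a log2 ratio of -0.26 (-0.64 to 0.11). Both libraries thus had a lower level in the high-mitochondrial cluster, with intervals that did not meet. Over all cardiomyocytes Corin was 436.5 CPM and 377 CPM, for a log2 ratio of -0.21 (-0.35 to -0.08), and -0.03 with the same mix of clusters. A UMI was found in 35.3% and 32.0% of cardiomyocytes, or 15.4% and 14.1% after thinning. T and B cells had 3 UMIs in control and 6 under PD-1 inhibitor.

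Nppc, the CNP gene, was found in few nuclei, and most of its UMIs were in a valve-like cluster of ECs. That cluster, led by Wnt9b and Hapln1, had 4 of 7 valve markers raised over the other ECs and held 84 control and 78 PD-1 inhibitor nuclei. It carried 36 of 46 Nppc UMIs in control and 50 of 59 under PD-1 inhibitor. The level was 276 CPM (194 to 382) in control and 301 CPM (223 to 396) under PD-1 inhibitor, for a log2 ratio of 0.12 (-0.53 to 0.78). It was 1.04 with at most 5% mitochondrial UMIs and lay between -0.35 and 0.24 under the other 11 alternatives, so no direction was held. Only 8 and 10 nuclei had a UMI, and the richest held 13 and 16. T and B cells had 0 UMIs in both libraries, which allows up to 6.76 and 10.9 CPM at 3 counts. In capillary-like, endocardial-like and arterial-like ECs Nppc was likewise at 0. Over all ECs it was 13.2 CPM and 17.7 CPM, for a log2 ratio of 0.42 (-0.20 to 1.06) that became -0.40 as a mean over nuclei.

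Npr1, the ANP and BNP receptor gene, was highest in mesothelial cells and ECs. Mesothelial cells had 204 CPM (173 to 238) in control and 170 CPM (146 to 197) under PD-1 inhibitor, for a log2 ratio of -0.26 (-0.58 to 0.05). ECs had 160 CPM (145 to 175) and 170 CPM (155 to 186), for a log2 ratio of 0.09 (-0.10 to 0.27). Mesothelial cells over ECs gave a log2 ratio of 0.35 (0.08 to 0.61) in control and 0.00 (-0.26 to 0.25) under PD-1 inhibitor, so the pair was set apart beyond counting error in control and not under PD-1 inhibitor. Whether that gap differed between the libraries was not tested. Adipocytes followed in control with 105 CPM (74.5 to 144), and fibroblasts had 49.1 CPM and 58.4 CPM.

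Within ECs the Npr1 level varied far less than that of Npr3. Across the 6 EC clusters it ran from 123 CPM in the valve-like to 192 CPM in the capillary-like cluster in control, and from 90.2 CPM to 223 CPM in the same clusters under PD-1 inhibitor. The Ahsg-led cluster, described with Npr3, had, of the 4 clusters with enough UMIs for a ratio, the one whose interval left 0 out, with 128 CPM and 177 CPM and a log2 ratio of 0.46 (0.12 to 0.81). Cardiomyocytes, at 13.1 CPM and 15.2 CPM, were at the level of T and B cells, 22.6 CPM and 10.9 CPM. Among fibroblasts, the valve interstitial-like cluster went from 15 UMIs (90.2 CPM, 50.5 to 149) to 31 UMIs (170 CPM, 115 to 241).

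Npr2, the CNP receptor gene, was low and broad. Glial cells had the highest level over both libraries, 107 CPM, but from 5 UMIs in 40 nuclei, with 92.7 CPM (19.1 to 271) in control and 141 CPM (17.0 to 508) under PD-1 inhibitor. Fibroblasts had 84.2 CPM (74.1 to 95.3) and 99.0 CPM (87.0 to 112), for a log2 ratio of 0.23 (-0.03 to 0.49). ECs had 71.9 CPM (62.5 to 82.2) and 87.0 CPM (76.5 to 98.4), for a log2 ratio of 0.27 (0.01 to 0.55), and fibroblasts over ECs gave 0.23 (-0.04 to 0.50) in control and 0.19 (-0.07 to 0.45) under PD-1 inhibitor. T and B cells had 15.8 CPM and 18.1 CPM.

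Npr2 in cardiomyocytes was 43.1 CPM and 43.2 CPM, above the lymphocyte level, for a log2 ratio of 0.00 (-0.42 to 0.42). The atrial-like nuclei were unlike this: 0 UMIs in control, which allows up to 49.7 CPM at 3 counts, and 13 UMIs under PD-1 inhibitor, 160 CPM (84.9 to 273), in 16.3% of nuclei. The 160 CPM was 3.21-fold the level of those 3 counts, a ratio of the point value and not a lower bound. Of the 13 UMIs, 5 were in 1 nucleus. In this cluster 27.6% of the 340 genes with at least 50 UMIs were over 1.5-fold higher. The EC markers were also higher in these nuclei, as given for Nppb and Corin. So were the fibroblast markers, at 3629 CPM in control and 5765 CPM under PD-1 inhibitor, and the mural cell markers, at 712.5 CPM and 1349 CPM. Those of B cells, at 133 CPM and 98.1 CPM, and of adipocytes, at 116 CPM and 98.1 CPM, were lower. The part of RNA from other cell types in the Npr2 value was not tested. Gm12473, an antisense gene that overlaps Npr2, had 1 UMI in the fibroblasts of either library.

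**Figure D4:**
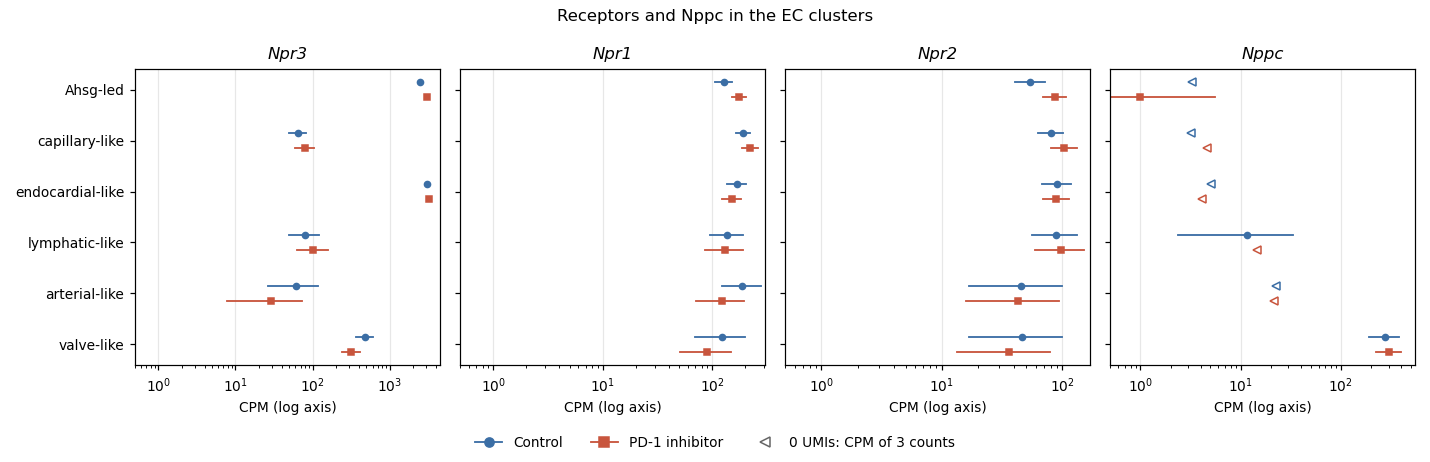
CPM (log axis) of Npr3, Npr1, Npr2 and Nppc in the 6 EC clusters, control as circles and PD-1 inhibitor as squares, with 95% Poisson intervals drawn from 0.5 CPM upwards, and open triangles at the CPM of 3 counts where no UMI was found. Npr3 lay between 2487 and 3192 CPM in the Ahsg-led and endocardial-like clusters and at most 476 CPM in the others, and Nppc reached 276 and 301 CPM in the valve-like cluster.

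Npr3, the clearance receptor gene, marked particular ECs. The endocardial-like cluster had 3056 CPM (2917 to 3201) in control and 3192 CPM (3063 to 3324) under PD-1 inhibitor, for a log2 ratio of 0.06 (-0.03 to 0.15). In 7 of 13 alternatives it lay above that interval, at 0.17 to 0.22, among them both other clustering resolutions and doublets kept. An EC cluster led by Ahsg, H19 and Plagl1, which reached no subtype name, had 2487 CPM (2386 to 2591) and 3019 CPM (2913 to 3129), for a log2 ratio of 0.28 (0.20 to 0.36). Both were far above capillary-like ECs, at 64.4 CPM and 80.4 CPM, and arterial-like ECs, at 60.6 CPM and 28.8 CPM. The Ahsg-led cluster had 2 of 10 endocardial markers raised over all other ECs, the endocardial-like cluster among them, where a name needed 3. The 10 endocardial markers summed to 6081 CPM and 6350 CPM there, beside 9861 CPM and 10610 CPM in the endocardial-like cluster. They summed to 6040 CPM and 6398 CPM in the valve-like and 403 CPM and 523 CPM in the capillary-like cluster. A UMI of Npr3 was found in 83.1% and 88.7% of endocardial-like and 66.6% and 74.8% of Ahsg-led nuclei. After thinning these were 67.3% and 69.8%, and 55.7% and 64.5%. T and B cells had 5.10% and 7.72%, or 2.67% and 4.41% after thinning.

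Over all ECs Npr3 was 1430 CPM (1387 to 1473) in control and 1898 CPM (1848 to 1949) under PD-1 inhibitor, for a log2 ratio of 0.41 (0.35 to 0.47). With the same mix of clusters in both libraries it was 0.18. The Ahsg-led and endocardial-like clusters had 957 and 444 nuclei in control and 1005 and 486 under PD-1 inhibitor, where the capillary-like cluster had 980 and 686. The valve-like cluster went the other way, from 476 CPM (365 to 610) to 319 CPM (239 to 417), for a log2 ratio of -0.58 (-1.14 to -0.03) on 62 and 53 UMIs. The ratio was -0.27 without the control nucleus that held 13 of the 62. None of the 7 genes was over 1.5-fold lower or higher in ECs, where 4.56% and 6.06% of 10693 genes were.

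Mesothelial cells, the lining of the epicardium, were the other site of Npr3. The level was 528 CPM (479 to 582) in control and 673 CPM (624 to 724) under PD-1 inhibitor, for a log2 ratio of 0.35 (0.17 to 0.53). A UMI was found in 37.6% and 50.4% of nuclei, and in 19.96% and 24.03% after thinning. Mesothelial nuclei had medians of 1293 UMIs in control and 1724 UMIs under PD-1 inhibitor. The log2 ratio was 0.31 after thinning and 0.34 with the same mix of depths. None of the 3 genes with at least 50 UMIs there was over 1.5-fold lower or higher, where 6.22% and 5.84% of 7281 genes were. In fibroblasts Npr3 was 67.8 CPM and 74.5 CPM, at the lymphocyte level. None of the 6 genes that could be counted in fibroblasts was over 1.5-fold lower or higher, where 4.07% and 5.57% of 10584 genes were.

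**Figure D5:**
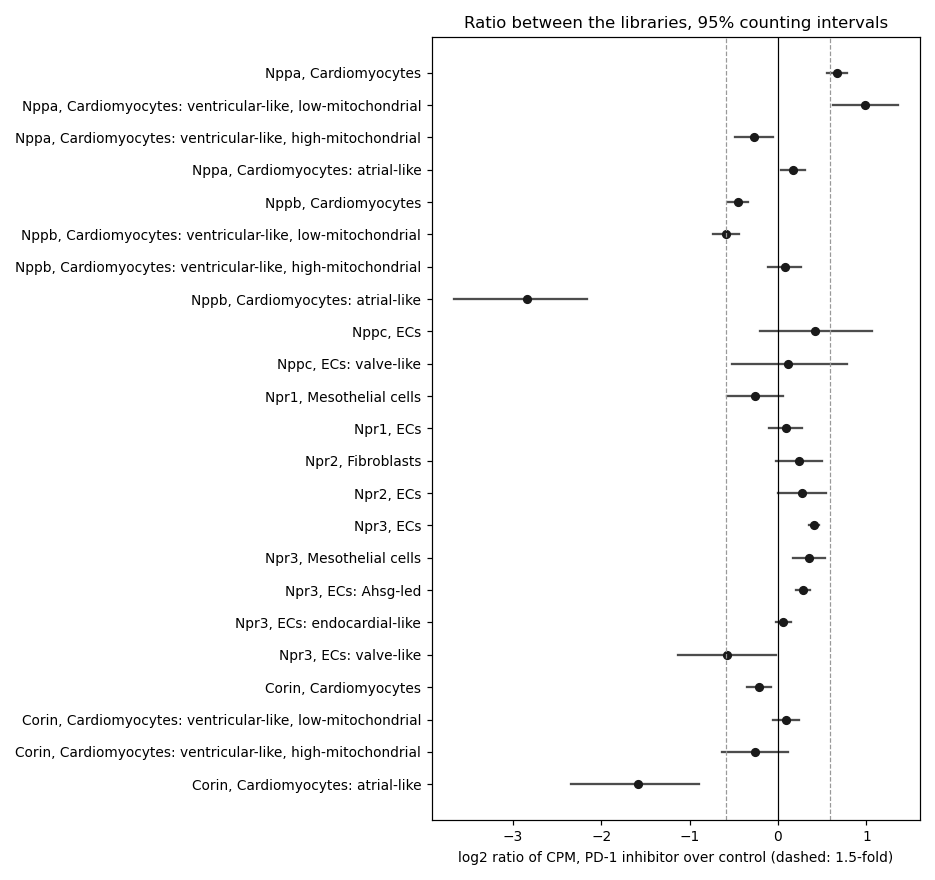
Log2 ratio of CPM, PD-1 inhibitor over control, for each gene in the cell types and clusters where it was described, with 95% counting intervals and dashed lines at 1.5-fold. Nppb and Corin in the atrial-like cluster lay lowest, at -2.84 and -1.58, and Nppa in the low-mitochondrial cluster highest, at 0.98.

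Genes whose profile over the 22 clusters was most like each gene's were named by Pearson's r of log2(CPM + 1), as a description over points that share libraries and depth. For Nppa these were Sln (r = 0.91), Tmem250-ps (0.83) and Hrc (0.82), and for Nppb Myh6 (0.97), Tnnt2 (0.97) and Ttn (0.96), genes of the contractile apparatus. Corin was closest to Tmem38a (0.89), Mfn1 (0.88) and Art1 (0.88). Npr3 was closest to Plagl1 (0.82), Tmem108 (0.82) and Cpe (0.81), Npr1 to Zfp423 (0.82), Bcr (0.81) and Sptan1 (0.81), and Npr2 to Prickle1 (0.90), Gm41077 (0.87) and Pdia5 (0.84). Among the 7 genes the closest pair was Nppb and Corin (0.82), followed by Nppa and Nppb (0.68).

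The other genes of the pathway were described in the cell type where their list was highest. Of the 10 transcription factors of the peptide genes, in cardiomyocytes, 2 were over 1.5-fold lower and 1 over 1.5-fold higher under PD-1 inhibitor, where 7.89% and 7.94% of all genes there were. Their median log2 ratio was -0.33 beside -0.01 over all genes. The mix of clusters differed: the high-mitochondrial one held 517 and 532 nuclei and the low-mitochondrial one 729 and 520. The counts, the median and the ratios over all cardiomyocytes were not recomputed with the same mix of clusters. Myocd, a coactivator of serum response factor, was 1094 CPM and 548 CPM, for a log2 ratio of -0.998 (-1.10 to -0.897), and -0.72 in both ventricular-like clusters. Gata4 was 306 CPM and 179 CPM, for a log2 ratio of -0.77 (-0.96 to -0.59), with -0.58 in the low-mitochondrial and -0.64 in the high-mitochondrial cluster. Srf was 20.5 CPM and 37.8 CPM, from 50 and 77 UMIs. Gata6, Mef2a and Tead1 lay between -0.44 and -0.38, and Tbx5 and Nkx2-5 at 0.21 and 0.09.

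Of the 6 measured cGMP kinase genes and targets, 2 were over 1.5-fold lower in cardiomyocytes and none was higher, where 7.89% and 7.94% of all genes were. In this type Npr1 was at the level of T and B cells and Npr2 above it. Prkg1, the cGMP-dependent kinase, was 581 CPM and 340 CPM, for a log2 ratio of -0.77 (-0.91 to -0.64). It was -0.75 in the low-mitochondrial and 0.01 in the high-mitochondrial cluster. Mrvi1, its substrate, had 35 and 17 UMIs, with an interval from -1.71 to 0.09. Pln and Hspb6 were at 0.19 and 0.27, and Vasp and Rgs2 at 0.06 and 0.03, while Prkg2 had 4 UMIs in all.

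Soluble guanylyl cyclase, which makes cGMP in answer to nitric oxide, was highest in mural cells. Gucy1a2 was 1598 CPM and 1028 CPM, for a log2 ratio of -0.64 (-0.79 to -0.48), the one of 3 genes over 1.5-fold lower where 8.60% of mural cell genes were and 8.11% were higher. Gucy1a1 and Gucy1b1 were at 0.16 and -0.04. Of the 8 phosphodiesterase genes, 2 could be counted in adipocytes, and Pde3b was over 1.5-fold lower at -0.68 (-1.07 to -0.32). That type had 154 and 16 nuclei, and 23.8% of its genes were over 1.5-fold lower and 15.6% higher.

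Among genes that process or break down the peptides, 6 of 7 could be counted in fibroblasts and none was past 1.5-fold in either direction, where 4.07% of all genes were lower and 5.57% higher. The convertase genes Pcsk5 and Pcsk6 were both at -0.43, Furin at -0.12 and Pam at -0.02. Mme, which encodes neprilysin, was at 0.44 (0.08 to 0.79) and Ide, the insulin-degrading enzyme, at 0.37 (0.03 to 0.71). Of 7 stress genes of cardiomyocytes, 6 could be counted and none was past 1.5-fold, where 7.89% of all cardiomyocyte genes were lower and 7.94% higher. Ankrd1 was at 0.29 (0.21 to 0.36), Myh7 at -0.08 and Acta1 at -0.04.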

How the data were processed

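SnRNA-seq of mouse hearts was compared between 1 control (PBS) and 1 PD-1 inhibitor library. The authors deposited UMI counts as whole numbers for every gene in every nucleus, not normalised. The genome build in the submitters' processing notes is GRCm38 (mm10), and the aligner, counter and strand setting are not given in the sources used here. Whether intronic reads were counted is likewise not stated. All barcodes had at least 500 UMIs. Nuclei with over 20% mitochondrial UMIs (83 control, 15 PD-1 inhibitor) and Scrublet doublets (592 and 308) were removed. Clustering used scanpy 1.11.5: 2000 variable genes, 30 components, 15 neighbours, Leiden resolution 1. A cluster was named from at least 3 markers found in 5% of its nuclei and over 2-fold above the others, and a cluster of 44 cycling nuclei stayed unnamed. The cell types and subtypes were rebuilt here and may differ from the study's.

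UMIs were summed by type and library as CPM with exact Poisson intervals. Shares have Clopper-Pearson intervals, and log2 ratios (0.5 UMI added to each sum) have exact binomial intervals, at 95%. Genes were counted past 1.5-fold where the libraries summed to 50 UMIs or more. The code was tested on simulated data. Named genes were the 7 genes, the pathway lists and, per gene with at least 200 UMIs, the 3 most alike over clusters. The genes and lists were chosen with earlier results of these data known. Positions are from GENCODE vM21, and sequences from RefSeq GRCm38.p6, where all 7 genes matched. A leading gene of 1 cardiomyocyte cluster is not reported here.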

Additional observations from a re-analysis of the deposited data

Results flagged for a closer look

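Nppa had a log2 ratio (PD-1 inhibitor over control) of 0.98 in the low-mitochondrial ventricular-like cardiomyocytes and -0.27 in the high-mitochondrial ones, opposite directions under the same contrast. The second was 0.23 without 1 control nucleus that held 108 of 366 UMIs, and -0.06 without the richest nucleus of each library. It was 0.17 in the atrial-like cardiomyocytes, again against -0.27. Npr3 had 0.28 in the Ahsg-led ECs and -0.58 in the valve-like ECs, the latter -0.27 without the control nucleus with most UMIs. With 1 library per group these differences were not tested.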

How the results depend on the processing

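The 23 log2 ratios were recomputed under the alternatives that applied, which gave 264 values, of which 234 stayed within the counting interval, 25 moved by more and 5 reversed. The reversals were Nppa in cardiomyocytes at -0.16 and in atrial-like nuclei at -0.42 and Corin in cardiomyocytes at 0.01, all with at most 5% mitochondrial UMIs, and Corin in ventricular-like cardiomyocytes at 0.04 with the same mix of clusters. Nppa in the high-mitochondrial cluster turned to 0.23 without 1 control nucleus. Nppa in cardiomyocytes (0.67) was 0.54 as a mean over nuclei, 0.14 with the same mix of clusters and 0.33 without atrial-like nuclei, the last chosen after seeing the data. In ventricular-like cardiomyocytes Nppa (0.33) was 0.07 with the same mix of clusters and 0.60 after thinning. Over all cardiomyocytes Nppb (-0.45) was -0.63 with at most 5% mitochondrial UMIs, and Corin (-0.21) -0.03 with the same mix. Npr3 in ECs (0.41) was 0.51 as a mean over nuclei, 0.48 after thinning, 0.18 with the same mix of clusters and 0.35 with at least 500 genes per nucleus. Nppc in ECs (0.42) was -0.40 as a mean over nuclei and -0.23 after thinning, the cause of which was not tested. Npr1 in mesothelial cells and Npr2 in fibroblasts stayed between -0.36 and -0.19 and between 0.18 and 0.28. Npr3 in endocardial-like ECs (0.06) moved under 7 of 13 alternatives, to 0.17 to 0.22. The results for fibroblasts and those without the richest nucleus were also added after seeing the data.

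No value was obtained for 9 combinations. There the glial or valve-like cluster did not form, or not more than 1 cluster was named ventricular-like, while the joint ventricular-like value needed more. No paired analysis was possible because each group has 1 library. Nppc, and Npr2 in glial cells, rest on few UMIs in few nuclei, and intervals hold no biological spread. The count of pathway genes past 1.5-fold was 6 lower and 1 higher at minimums of 50 and 20 UMIs, in types where 4.07% to 23.8% of all genes were lower and 5.57% to 15.6% higher.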
